A study of Mus musculus with 18 samples.

Results

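The 40 genes described here encode enzymes and other proteins of the lysosome. They are 12 glycosidases, 5 sulfatases, 5 lipid hydrolases, 2 acid phosphatases with 1 peptidase, 4 activators and soluble binding proteins, 6 membrane proteins, and 5 transporters, channels and pump subunits. They were listed by symbol for the function of their products, and cathepsins were left out. All 40 were among the 24421 gene symbols counted, and all 40 were among the 10550 genes that passed the filter on low counts.

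RNA of synovial macrophages from wild-type C57BL/6 mice of both sexes, 8 to 20 weeks old, was sequenced in bulk in 18 libraries of 6 groups, 3 libraries per group. The subsets were LYVE1+CX3CR1+ cells, sorted from the MHCII-Ly6C- gate, MHCII+CD11c- cells and MHCII+CD11c+ cells. Each subset came from untreated mice and from mice given immune complexes (IC), which are ovalbumin (OVA) bound by rabbit anti-OVA antibody, intravenously 8 h before the synovium was taken. By the study's methods a library held cells of 6 legs pooled from 3 mice, so the spread between libraries is a spread between pools and the values of single animals cannot be seen.

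Macrophages use lysosomes to digest what they take up. Soluble hydrolases are made in the endoplasmic reticulum, most are tagged with mannose 6-phosphate for sorting, and each cleaves 1 kind of bond in glycans, lipids or proteins, some of them with the help of small activator proteins. Membrane proteins of the lysosome protect its limiting membrane, export the products of digestion and pump protons to keep the lumen acidic. Many of these genes are known to share a promoter element bound by the MiT/TFE transcription factors TFEB, TFE3 and MITF, whose core is the E-box CACGTG and whose longer palindromic form is TCACGTGA.

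RefSeq promoter windows of GRCm38.p6, from 250 bases before to 50 bases after a transcript start, were matched by symbol for 37 of the 40 genes (all but Galns, Asah1 and Npc1). Both motifs read the same on both strands, and the longer one contains the shorter. CACGTG was found in the windows of 9 genes (24.3%): Arsa, Cln3, Gaa, Gla, Glb1, Lamp1, Mcoln1, Naglu and Sgsh. It was found in 9.17% of all counted genes with a window, which include genes that did not pass the filter on low counts. Of 55 other listed genes of the lysosome and its regulation with a window, 30.9% held CACGTG and 16.4% held TCACGTGA. Among the 37 genes, TCACGTGA was found for Cln3, Gla and Mcoln1 (8.11%), against 1.46% of all counted genes with a window. The stretches around the matches are shown for the 4 of these genes whose stretch lies outside the exons of the gene, since they let the spacing of the motifs be seen. The Lamp1 stretch lies on chr8 (chr8:13159080-13159160, + strand), that of Gla on chrX (chrX:134601173-134601253, - strand), that of Gaa on chr11 (chr11:119267803-119267848, + strand) and that of Glb1 on chr9 (chr9:114401010-114401055, + strand). Each is written 5′ to 3′ on the strand of its gene, and capitals mark the motif.
Lamp1: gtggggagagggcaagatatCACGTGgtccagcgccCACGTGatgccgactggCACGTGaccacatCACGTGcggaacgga
Gla: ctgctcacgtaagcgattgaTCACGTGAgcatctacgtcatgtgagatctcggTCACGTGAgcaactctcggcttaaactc
Gaa: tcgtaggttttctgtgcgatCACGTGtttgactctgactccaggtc
Glb1: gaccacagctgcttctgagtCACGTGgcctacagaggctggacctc
The Lamp1 stretch held 4 copies of CACGTG, the first of which began 61 bases before the transcript start, and the Gla stretch held 2 copies of TCACGTGA, which began 228 and 195 bases before the start. A match is a run of letters, and binding of a factor was not measured.

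The libraries held 245903 to 2172358 counts, and depth differed with the subset: LYVE1+CX3CR1+ libraries held at least 1509070 counts and MHCII+CD11c- libraries at most 985186. The smallest library, replicate 2 of MHCII+CD11c- with IC, stood apart for these genes, and results that rest on it are given with and without it. Levels are given in CPM, counts per 1e6 of the library's counts on the 10550 genes that passed the filter, scaled with TMM factors. The sorted populations carried the markers of their gates: mean Lyve1 was 2372 CPM in untreated LYVE1+CX3CR1+ cells against 797 CPM in MHCII+CD11c- and 378 CPM in MHCII+CD11c+ cells, mean H2-Ab1 was 20.3, 4626 and 7162 CPM, and mean Itgax, which encodes CD11c, was 1.71, 6.02 and 269.5 CPM. With IC these means were 3315, 1549 and 1096 CPM for Lyve1, 34.6, 2895 and 6339 CPM for H2-Ab1, and 3.29, 45.2 and 337.5 CPM for Itgax. In MHCII+CD11c- libraries with IC, Lyve1 ran from 516 to 2290 CPM. That range reached into the one of untreated LYVE1+CX3CR1+ libraries (2171 to 2563 CPM) and lay below the one with IC (3172 to 3555 CPM). Over untreated LYVE1+CX3CR1+, MHCII+CD11c- and MHCII+CD11c+ libraries, 8 macrophage markers summed to 13530 to 13780, 10100 to 12150 and 6831 to 7413 CPM. With IC they summed to 14110 to 16430, 8766 to 11910 and 7850 to 8753 CPM. Mrc1 and Fcgr1 were not ordered so, with untreated means of 1210, 1887 and 1746 CPM and of 58.8, 81.4 and 51.5 CPM. Transcripts of other cell types also differed between the subsets. The summed level of 10 neutrophil markers, 9 of them counted, was 13.2 to 17.2 CPM in untreated LYVE1+CX3CR1+ libraries, where S100a8, Camp, Ltf and Mpo were at 0, 548 to 1291 CPM in MHCII+CD11c- and 20.4 to 539.6 CPM in MHCII+CD11c+ libraries. With IC the same sum was 19.2 to 135.5 CPM, 1186 to 3274 CPM and 821 to 1924 CPM. The sum of 6 dendritic cell markers was 3.23 to 6.74 CPM, 102 to 149 CPM and 238 to 429 CPM without treatment, and Flt3 and Ccr7 were at 0 in the LYVE1+CX3CR1+ libraries. With IC it was 1.05 to 3.38 CPM, 49.7 to 86.6 CPM and 184 to 197 CPM. The sum of 7 counted markers of T, NK and B cells was 0 to 1.62 CPM, 148 to 230.2 CPM and 45.2 to 72.8 CPM without treatment, with Cd3e and Cd3g at 0 in all 3 subsets, and 0 to 2.64 CPM, 179 to 259.8 CPM and 57.1 to 65.3 CPM with IC. The sum of 5 mast cell markers was 0 to 52.7 CPM, 6.11 to 213.5 CPM and 6.3 to 82.2 CPM without treatment, and 0 to 31.7 CPM, 115 to 478 CPM and 44.7 to 267 CPM with IC. The sum of 6 endothelial markers was 1.62 to 8.78 CPM, 13.3 to 93.0 CPM and 14.5 to 31.6 CPM without treatment, and that of 8 fibroblast markers was 30.15 to 644.9 CPM, 54.65 to 91.7 CPM and 26.3 to 70.3 CPM. The sum of 7 monocyte markers was 3021 to 3682 CPM, 2723 to 3317 CPM and 2225 to 2856 CPM without treatment. Its genes ran in both directions, as for mean F13a1 (2867, 2234 and 1751 CPM) and mean Ccr2 (27.8, 566.4 and 775.9 CPM). The part of such cells, and of the level of macrophage markers, in the results that follow was not tested.

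Untreated LYVE1+CX3CR1+ macrophages had more transcript of many lysosomal genes than either MHCII+ subset. Their 3 libraries placed 1.74%, 1.74% and 1.75% of all counts on the 40 genes, the MHCII+CD11c- libraries 1.33%, 1.28% and 1.26%, and the MHCII+CD11c+ libraries 1.45%, 1.29% and 1.26%. The LYVE1+CX3CR1+ libraries were above all others, and the MHCII+ subsets overlapped. The highest mean of the 3 subsets was in LYVE1+CX3CR1+ cells for 30 genes, in MHCII+CD11c- cells for 7 and in MHCII+CD11c+ cells for 3. The same split over all genes was not counted. In bulk RNA, a subset in which fewer cells hold a transcript and a subset whose cells each hold less of it cannot be told apart.

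**Figure D1:**
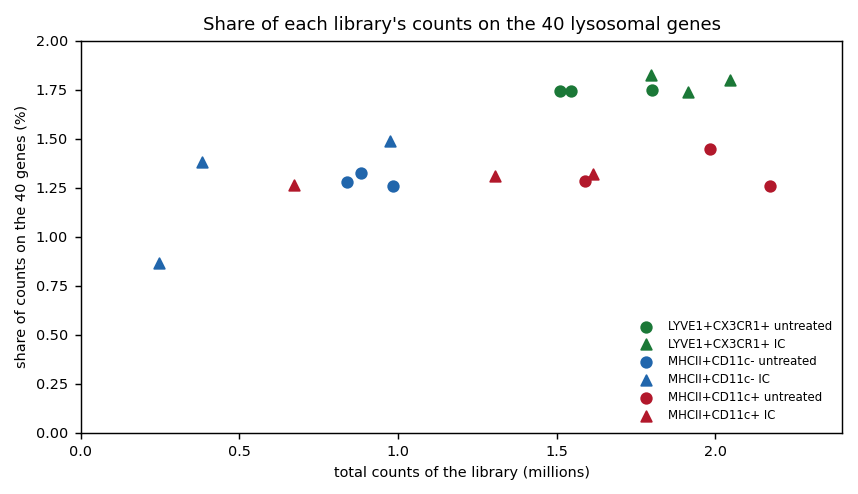
Share of each library's counts that fell on the 40 genes (y axis, percent) against the library's total counts (x axis, in units of 1e6 counts), 1 point per library, colored by subset, circles for untreated and triangles for IC. The 6 LYVE1+CX3CR1+ libraries lie between 1.74% and 1.82%, above all 12 MHCII+ libraries, and replicate 2 of MHCII+CD11c- with IC lies lowest, at 0.863%.

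Each gene was tested between groups by the quasi-likelihood test of edgeR, fitted to the 18 libraries at once, and adjusted p-values (Benjamini-Hochberg over all 10550 genes, threshold 0.05) are from that test. Against untreated MHCII+CD11c- cells, 12 of the 40 genes passed the threshold in LYVE1+CX3CR1+ cells, 11 higher and 1 lower (30%). Of all genes tested, 11.4% passed, and of the 6384 genes at least as abundant as the lowest member 14.5% passed. The median log2 fold change was 0.43 over the 40 genes and -0.02 over all genes.

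Against untreated MHCII+CD11c+ cells, 22 of the 40 genes passed in LYVE1+CX3CR1+ cells, 20 higher and 2 lower (55%), while 21.8% of all genes passed and 27.1% of those at least as abundant. The median log2 fold change was 0.64 over the 40 genes and -0.02 over all genes. Between the MHCII+ subsets, 4 of the 40 genes passed, 1 higher and 3 lower in MHCII+CD11c+ cells, against 3.49% of all genes, and the median over the 40 genes was -0.24. The 3 comparisons share libraries and are not independent of each other. Each gene's values below are in CPM, in the order of replicates 1, 2 and 3, and differences written with ± and an adjusted p are log2 fold changes with their SE.

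**Figure D2:**
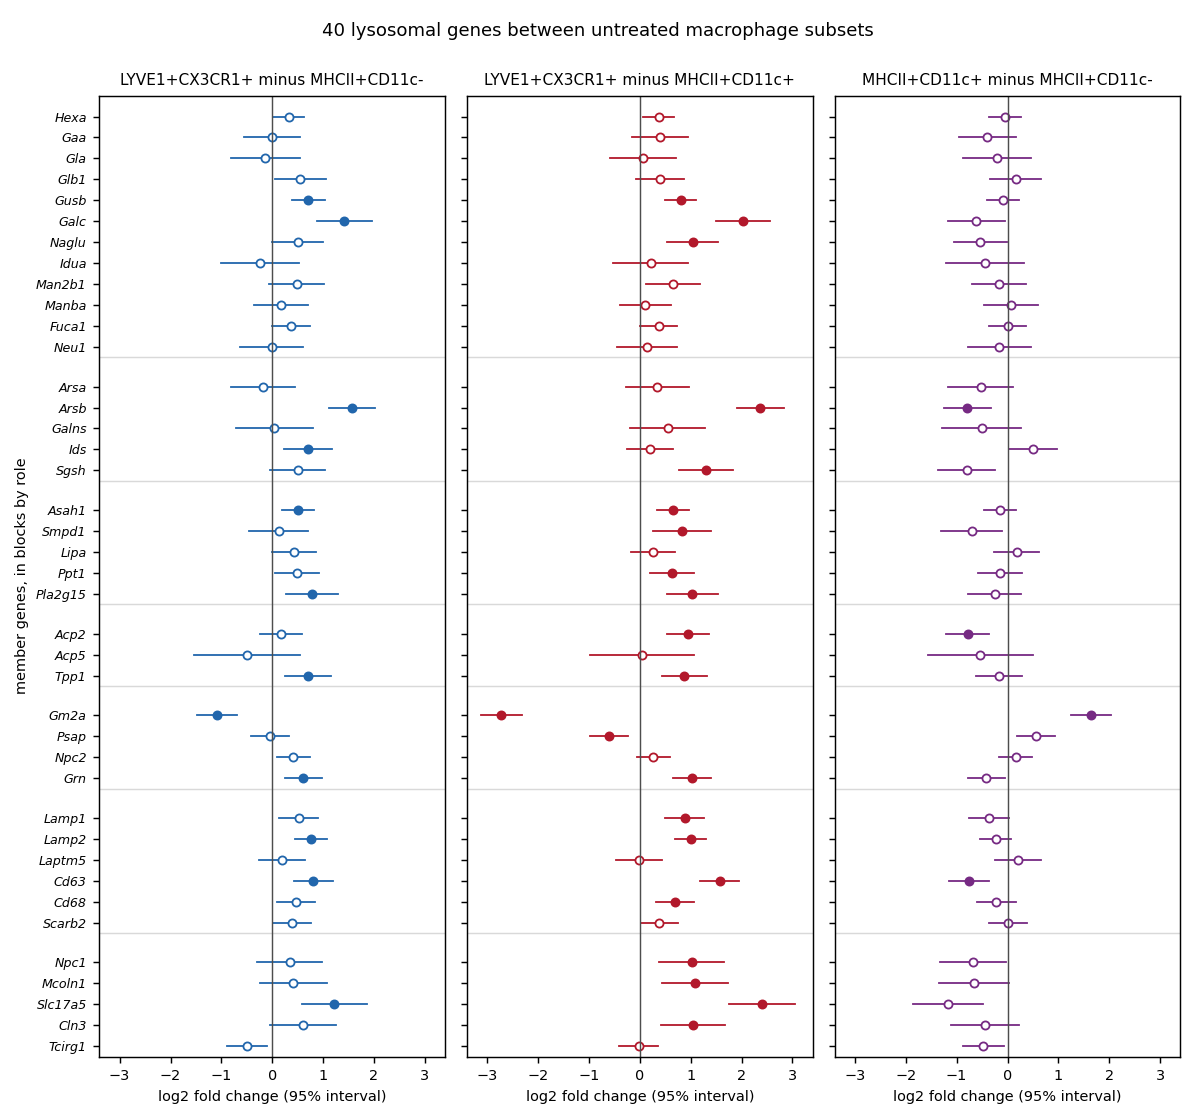
Log2 fold change of the 40 genes between untreated subsets (x axes), with 95% intervals and genes in blocks by role (y axis). Filled points passed an adjusted p of 0.05. Most points of the first 2 panels lie right of 0, and Gm2a lies far left, at -1.08 and -2.73.

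Among the glycosidases, which cleave sugars from glycans and glycolipids, 2 of 12 were higher in LYVE1+CX3CR1+ than in MHCII+CD11c- cells and 3 of 12 were higher than in MHCII+CD11c+ cells. These shares, 16.7% and 25%, were near those of all genes (11.4% and 21.8%) and of genes at least as abundant as the lowest member (14.5% and 27.1%). Galc (chr12:98202294-98259459 of GRCm38) encodes galactosylceramidase, which degrades the galactolipids of myelin. It measured 141, 100.3 and 136 CPM in LYVE1+CX3CR1+, 32.6, 66 and 42.9 CPM in MHCII+CD11c- and 31, 32.9 and 28.5 CPM in MHCII+CD11c+ libraries. All 3 LYVE1+CX3CR1+ libraries were above all others, and the MHCII+ subsets overlapped. The log2 fold change was 1.42 ± 0.26 against MHCII+CD11c- (adjusted p = 0.000492) and 2.03 ± 0.25 against MHCII+CD11c+ cells (adjusted p = 1.06e-06), that is 2.68-fold and 4.09-fold. Gusb, β-glucuronidase, measured 407, 396 and 379 CPM in LYVE1+CX3CR1+, 266, 218 and 237 CPM in MHCII+CD11c- and 242, 203 and 233 CPM in MHCII+CD11c+ libraries. Again the LYVE1+CX3CR1+ libraries stood above all the rest, by a log2 fold change of 0.71 ± 0.15 (adjusted p = 0.0027) and 0.80 ± 0.15 (adjusted p = 0.000264). Naglu, which removes N-acetylglucosamine from heparan sulfate, measured 101, 95.3 and 79.2 CPM in LYVE1+CX3CR1+, 68.6, 46.5 and 78.7 CPM in MHCII+CD11c- and 62.5, 28.3 and 42.4 CPM in MHCII+CD11c+ libraries. It was higher in LYVE1+CX3CR1+ than in MHCII+CD11c+ cells, without overlap of libraries (1.04 ± 0.24, adjusted p = 0.00216), and the difference from MHCII+CD11c- cells, 0.50 ± 0.25, did not pass (adjusted p = 0.228).

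The other 9 glycosidases passed in no untreated comparison. Man2b1, lysosomal α-mannosidase, was the most abundant of them, at 1105, 977 and 1061 CPM in LYVE1+CX3CR1+, 829, 675 and 752 CPM in MHCII+CD11c- and 713, 625 and 669 CPM in MHCII+CD11c+ libraries. The LYVE1+CX3CR1+ libraries did not overlap with the others, but the log2 fold changes of 0.48 ± 0.26 and 0.65 ± 0.26 had adjusted p-values of 0.287 and 0.0801. Hexa, which takes part in the breakdown of GM2 ganglioside, measured 655, 608 and 663 CPM in LYVE1+CX3CR1+, 501, 569.7 and 471 CPM in MHCII+CD11c- and 553, 471 and 464 CPM in MHCII+CD11c+ libraries. Fuca1, α-fucosidase, measured 148, 147 and 153 CPM in LYVE1+CX3CR1+, 115, 124 and 108 CPM in MHCII+CD11c- and 124, 109.8 and 113 CPM in MHCII+CD11c+ libraries. For Hexa and Fuca1 too the LYVE1+CX3CR1+ libraries lay above the others, by log2 fold changes of 0.32 (adjusted p = 0.198) and 0.37 (adjusted p = 0.0802) for Hexa and 0.37 (adjusted p = 0.215) and 0.37 (adjusted p = 0.147) for Fuca1. Gaa, which degrades glycogen, measured 97, 72.7 and 74.3 CPM in LYVE1+CX3CR1+, 90.7, 86.8 and 67.4 CPM in MHCII+CD11c- and 60.9, 59.2 and 64.6 CPM in MHCII+CD11c+ libraries. Its MHCII+CD11c- libraries overlapped with those of LYVE1+CX3CR1+ cells, and the MHCII+CD11c+ libraries were below both. Glb1, β-galactosidase, measured 49.2, 58.3 and 56.5 CPM in LYVE1+CX3CR1+, 38.4, 35.5 and 37.8 CPM in MHCII+CD11c- and 43.6, 47.3 and 34.2 CPM in MHCII+CD11c+ libraries, with the LYVE1+CX3CR1+ libraries highest. The remaining glycosidases showed overlapping libraries: Gla, α-galactosidase A, ranged from 32.6 to 36.4 CPM in LYVE1+CX3CR1+ cells, 24.5 to 55.2 CPM in MHCII+CD11c- and 19.8 to 41.5 CPM in MHCII+CD11c+ cells, Idua (α-L-iduronidase) from 22.9 to 37.2, 23.2 to 47.7 and 17.8 to 30.5 CPM, Manba (β-mannosidase) from 82.9 to 112, 67.4 to 111 and 69 to 101 CPM, and Neu1 (sialidase) from 37.7 to 55.2, 39.8 to 48.8 and 38.8 to 42 CPM.

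The sulfatases remove sulfate groups, mostly from glycosaminoglycans, and 1 of them, Arsb, had the smallest adjusted p among the genes that were higher in LYVE1+CX3CR1+ cells in both comparisons. Arsb (chr13:93771630-93943016 of GRCm38) encodes arylsulfatase B, which acts on dermatan and chondroitin sulfate. It measured 917, 811 and 817 CPM in LYVE1+CX3CR1+, 276, 262 and 317 CPM in MHCII+CD11c- and 135, 191 and 167 CPM in MHCII+CD11c+ libraries. The 3 subsets formed 3 separate ranges. LYVE1+CX3CR1+ cells exceeded MHCII+CD11c- cells 2.98-fold (log2 1.57 ± 0.22, adjusted p = 2.11e-05) and MHCII+CD11c+ cells 5.16-fold (log2 2.37 ± 0.23, adjusted p = 1.3e-08), and MHCII+CD11c+ cells were below MHCII+CD11c- cells (log2 -0.79 ± 0.22, adjusted p = 0.046). The last call was lost when any 1 of the 6 libraries compared was left out. Sgsh, the sulfamidase of heparan sulfate, measured 109.8, 85.9 and 97.5 CPM in LYVE1+CX3CR1+, 72.1, 89.2 and 47 CPM in MHCII+CD11c- and 26.3, 51.9 and 41 CPM in MHCII+CD11c+ libraries. The LYVE1+CX3CR1+ and MHCII+CD11c+ ranges were apart (1.30 ± 0.26, adjusted p = 0.000432), while the MHCII+CD11c- libraries overlapped with both. Ids, iduronate sulfatase, measured 101, 150.4 and 135 CPM in LYVE1+CX3CR1+, 65.1, 57.5 and 112 CPM in MHCII+CD11c- and 112, 118 and 106 CPM in MHCII+CD11c+ libraries. Libraries of the subsets overlapped, and only the difference from MHCII+CD11c- cells passed (0.71 ± 0.23, adjusted p = 0.0468), a call lost without any of 4 of the 6 libraries. Arsa, which hydrolyses sulfatide, and Galns, which acts on keratan sulfate, passed nowhere, with means of 42.6 ± 12.7, 48.3 ± 5.19 and 33.2 ± 10.5 CPM for Arsa and 25.4 ± 8.21, 24.5 ± 7.02 and 17.1 ± 3.49 CPM for Galns (SD, n = 3).

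Of the 5 lipid hydrolases, 2 (40%) passed against MHCII+CD11c- and 4 (80%) against MHCII+CD11c+ cells, each higher in LYVE1+CX3CR1+ cells. The shares of all genes were 11.4% and 21.8%. Asah1, acid ceramidase, measured 417, 397 and 449 CPM in LYVE1+CX3CR1+, 301, 304 and 282 CPM in MHCII+CD11c- and 278, 268 and 255 CPM in MHCII+CD11c+ libraries. All 3 LYVE1+CX3CR1+ libraries exceeded all others, by 0.51 ± 0.15 (adjusted p = 0.0288) and 0.66 ± 0.15 (adjusted p = 0.00189). Pla2g15, a phospholipase of the lysosome, measured 202, 182 and 155 CPM in LYVE1+CX3CR1+, 97.7, 129.6 and 87.9 CPM in MHCII+CD11c- and 109, 88.8 and 66.1 CPM in MHCII+CD11c+ libraries. Here too the LYVE1+CX3CR1+ range lay above the rest, by 0.78 ± 0.25 (adjusted p = 0.0413) and 1.03 ± 0.24 (adjusted p = 0.00225). Ppt1, which removes palmitate from proteins, measured 158, 151 and 171 CPM in LYVE1+CX3CR1+, 79.1, 116 and 147 CPM in MHCII+CD11c- and 103, 107 and 99.8 CPM in MHCII+CD11c+ libraries, and the difference from MHCII+CD11c+ cells passed (0.63 ± 0.21, adjusted p = 0.0271). Smpd1, acid sphingomyelinase, measured 49.2, 57.7 and 47.4 CPM in LYVE1+CX3CR1+, 48.8, 45.2 and 47 CPM in MHCII+CD11c- and 34.2, 21 and 30.9 CPM in MHCII+CD11c+ libraries. It was separated from the MHCII+CD11c+ libraries (0.83 ± 0.28, adjusted p = 0.0314) and not from the MHCII+CD11c- libraries. Lipa, lysosomal acid lipase, averaged 279 ± 60.6, 206 ± 36.5 and 233 ± 59.9 CPM (SD, n = 3) and passed in no comparison.

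Tpp1, a tripeptidyl peptidase, measured 273, 234 and 244 CPM in LYVE1+CX3CR1+, 154, 125 and 183 CPM in MHCII+CD11c- and 173, 112 and 124 CPM in MHCII+CD11c+ libraries. The LYVE1+CX3CR1+ libraries were above all others, by 0.70 ± 0.22 (adjusted p = 0.0356) and 0.87 ± 0.21 (adjusted p = 0.00337). Acp2, lysosomal acid phosphatase, was distinguished by low values in MHCII+CD11c+ cells: it measured 133, 107 and 116 CPM in LYVE1+CX3CR1+, 117, 115 and 84.8 CPM in MHCII+CD11c- and 70.9, 50.6 and 61.2 CPM in MHCII+CD11c+ libraries. The MHCII+CD11c+ range was below both others, with a log2 fold change of 0.95 ± 0.20 for LYVE1+CX3CR1+ against MHCII+CD11c+ (adjusted p = 0.000753) and -0.79 ± 0.21 for MHCII+CD11c+ against MHCII+CD11c- cells (adjusted p = 0.0309). Acp5, tartrate-resistant acid phosphatase, which is also an osteoclast marker, was low in every subset, at 10.2 to 18.2, 8.56 to 33.7 and 7.23 to 19.4 CPM. The summed level of 8 other osteoclast markers was 34.4 to 40.4 CPM in LYVE1+CX3CR1+, 176 to 265 CPM in MHCII+CD11c- and 138 to 188 CPM in MHCII+CD11c+ libraries, in the MHCII+ libraries mostly from Mmp9 (100.3 to 233.7 CPM). Of these 8 markers, Calcr and Oscar had at most 1 count in any untreated library. Dcstamp, which encodes a cell fusion protein, was at 21.04 to 26.79 CPM in MHCII+CD11c+ libraries and at 0 in the other two subsets. Ctsk, which encodes cathepsin K, was at 29.65 to 30.69 CPM in LYVE1+CX3CR1+, 3.49 to 24.5 CPM in MHCII+CD11c- and 5.305 to 11.03 CPM in MHCII+CD11c+ libraries.

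The activators and soluble binding proteins differed in opposite directions. Gm2a (chr11:55098115-55113029 of GRCm38) encodes the activator protein needed for the breakdown of GM2 ganglioside, and it was the lysosomal gene with the smallest adjusted p between LYVE1+CX3CR1+ and MHCII+CD11c+ cells. It measured 148, 147 and 119.5 CPM in LYVE1+CX3CR1+, 351, 301 and 228 CPM in MHCII+CD11c- and 960.4, 846 and 938 CPM in MHCII+CD11c+ libraries. The 3 subsets formed separate ranges in the order opposite to that of Arsb. The log2 fold change of LYVE1+CX3CR1+ cells was -1.08 ± 0.19 against MHCII+CD11c- (adjusted p = 0.000309) and -2.73 ± 0.19 against MHCII+CD11c+ cells (adjusted p = 6.79e-11), and MHCII+CD11c+ cells exceeded MHCII+CD11c- cells 3.12-fold (log2 1.64 ± 0.19, adjusted p = 6.6e-06). The sum of the dendritic cell markers, given above, was ordered over the subsets in the same way, as were the sort genes H2-Ab1 and Itgax. Of the dendritic cell markers, Ccr7 was not: its mean was 39.9 CPM in MHCII+CD11c- and 33.3 CPM in MHCII+CD11c+ cells. The part of such cells in the level of Gm2a was not tested. Psap encodes prosaposin, the precursor of the saposins, which activate several sphingolipid hydrolases. It had the highest level per kilobase of exon of the 40 genes in each untreated subset, at 1026 ± 61.8, 1058 ± 131 and 1556 ± 139 CPM per kb (SD, n = 3). In CPM it measured 2983, 2644 and 2821 CPM in LYVE1+CX3CR1+, 3317, 2711 and 2677 CPM in MHCII+CD11c- and 4705, 4109 and 3998 CPM in MHCII+CD11c+ libraries. The MHCII+CD11c+ libraries were above all others, and LYVE1+CX3CR1+ cells were lower than MHCII+CD11c+ cells (log2 -0.60 ± 0.18, adjusted p = 0.0169).

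Grn, which encodes progranulin, a secreted and lysosomal glycoprotein, was ordered as Arsb was, at 3183, 2956 and 2835 CPM in LYVE1+CX3CR1+, 2014, 2033 and 1821 CPM in MHCII+CD11c- and 1679, 1414 and 1304 CPM in MHCII+CD11c+ libraries. Its 3 ranges did not overlap. LYVE1+CX3CR1+ cells exceeded MHCII+CD11c- cells by 0.61 ± 0.18 (adjusted p = 0.0237) and MHCII+CD11c+ cells by 1.03 ± 0.18 (adjusted p = 9.96e-05). Npc2, a soluble carrier of cholesterol, measured 538, 485 and 568 CPM in LYVE1+CX3CR1+, 389.5, 369 and 432 CPM in MHCII+CD11c- and 471, 449.7 and 409 CPM in MHCII+CD11c+ libraries. The LYVE1+CX3CR1+ range was highest, but neither log2 fold change (0.42 ± 0.16 and 0.26 ± 0.16) passed (adjusted p = 0.101 and 0.287).

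**Figure D3:**
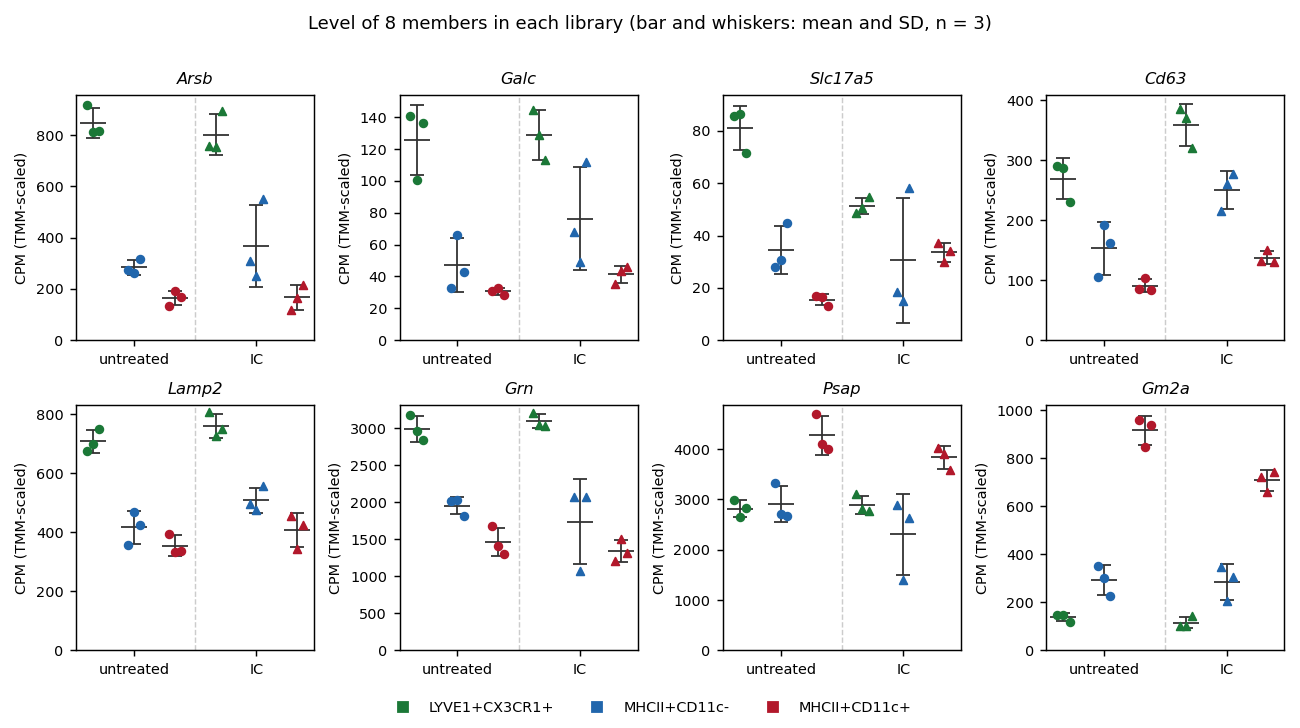
TMM-scaled CPM (y axes, from 0) of 8 of the genes in each of the 18 libraries, untreated on the left of each panel and IC on the right, points colored by subset, bars and whiskers for mean and SD (n = 3). In the untreated libraries, green points (LYVE1+CX3CR1+) lie above the others for Arsb, Galc, Slc17a5, Cd63, Lamp2 and Grn, and red points (MHCII+CD11c+) lie above the others for Psap and Gm2a.

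Of the 6 membrane proteins, 2 (33.3%) passed against MHCII+CD11c- and 4 (66.7%) against MHCII+CD11c+ cells, all higher in LYVE1+CX3CR1+ cells. The shares of all genes were 11.4% and 21.8%. Cd63 (chr10:128900989-128912822 of GRCm38) encodes a tetraspanin of late endosomes and lysosomes. It measured 289.8, 287 and 229 CPM in LYVE1+CX3CR1+, 106, 192 and 161 CPM in MHCII+CD11c- and 84.6, 103 and 84.4 CPM in MHCII+CD11c+ libraries. The 3 subsets formed separate ranges, with log2 fold changes of 0.81 ± 0.19 (adjusted p = 0.00461) and 1.57 ± 0.19 (adjusted p = 5.68e-07) for LYVE1+CX3CR1+ against MHCII+CD11c- and MHCII+CD11c+ cells, and of -0.76 ± 0.19 (adjusted p = 0.0257) between the MHCII+ subsets. Lamp2, a main glycoprotein of the limiting membrane, measured 677, 698 and 752 CPM in LYVE1+CX3CR1+, 358, 469 and 424 CPM in MHCII+CD11c- and 395, 335 and 336 CPM in MHCII+CD11c+ libraries. LYVE1+CX3CR1+ libraries were the highest, by a log2 fold change of 0.77 ± 0.15 (adjusted p = 0.001) and 2-fold (adjusted p = 1.3e-05), and the MHCII+ subsets overlapped. Lamp1, the related glycoprotein, measured 1412, 1340 and 1306 CPM in LYVE1+CX3CR1+, 933, 977 and 926 CPM in MHCII+CD11c- and 831, 695 and 675 CPM in MHCII+CD11c+ libraries. Its ranges were ordered and separate in the same way as those of Cd63, but only the difference from MHCII+CD11c+ cells passed (0.88 ± 0.19, adjusted p = 0.000921). The difference from MHCII+CD11c- cells was 0.52 ± 0.19 (adjusted p = 0.0794).

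Cd68, macrosialin, measured 792, 557 and 671 CPM in LYVE1+CX3CR1+, 463, 521 and 477 CPM in MHCII+CD11c- and 456, 446 and 353 CPM in MHCII+CD11c+ libraries. LYVE1+CX3CR1+ libraries were above all others, and the difference from MHCII+CD11c+ cells passed (0.69 ± 0.18, adjusted p = 0.00693). Scarb2, the receptor that carries glucocerebrosidase to the lysosome, measured 254, 228 and 279 CPM in LYVE1+CX3CR1+, 180.2, 219 and 181 CPM in MHCII+CD11c- and 183, 228 and 175 CPM in MHCII+CD11c+ libraries, and passed in neither comparison. Laptm5, a small transmembrane protein of blood cell lysosomes, averaged 1581 ± 36.5, 1386 ± 152 and 1599 ± 39.8 CPM (SD, n = 3). The 95% interval of its log2 fold change was -0.26 to 0.64 against MHCII+CD11c- and -0.47 to 0.43 against MHCII+CD11c+ cells.

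The 3 transport proteins Slc17a5, Npc1 and Cln3 and the channel Mcoln1 had their lowest untreated means in MHCII+CD11c+ cells, and each passed against LYVE1+CX3CR1+ cells. Slc17a5 (chr9:78536488-78588041 of GRCm38) encodes sialin, which exports sialic acid from the lysosome. It measured 85.6, 86.5 and 71.6 CPM in LYVE1+CX3CR1+, 27.9, 30.6 and 45 CPM in MHCII+CD11c- and 16.8, 16.4 and 13 CPM in MHCII+CD11c+ libraries. The 3 ranges were separate. LYVE1+CX3CR1+ cells exceeded MHCII+CD11c- cells 2.34-fold (log2 1.23 ± 0.31, adjusted p = 0.00868) and MHCII+CD11c+ cells 5.26-fold (log2 2.39 ± 0.32, adjusted p = 2.14e-06). Npc1, which moves cholesterol out of the lysosome, measured 265, 191 and 204 CPM in LYVE1+CX3CR1+, 128, 214 and 178 CPM in MHCII+CD11c- and 121, 116 and 89.7 CPM in MHCII+CD11c+ libraries. Mcoln1, a calcium channel of the lysosome, measured 60.7, 37.6 and 52.2 CPM in LYVE1+CX3CR1+, 41.9, 51.3 and 20.4 CPM in MHCII+CD11c- and 23.1, 21 and 26.5 CPM in MHCII+CD11c+ libraries. Cln3, a membrane protein whose loss causes a ceroid lipofuscinosis, measured 60.7, 42.6 and 45.8 CPM in LYVE1+CX3CR1+, 32.6, 17.1 and 47 CPM in MHCII+CD11c- and 27.8, 23 and 20.7 CPM in MHCII+CD11c+ libraries. For these 3 genes the LYVE1+CX3CR1+ libraries were above the MHCII+CD11c+ libraries and overlapped with the MHCII+CD11c- libraries, and the differences from MHCII+CD11c+ cells were 1.02 ± 0.31 (adjusted p = 0.0177), 1.08 ± 0.32 (adjusted p = 0.0132) and 1.05 ± 0.31 (adjusted p = 0.0131). Tcirg1, a subunit of the proton pump also known from osteoclasts, had its highest mean in MHCII+CD11c- cells, at 75.9 ± 15.8, 107 ± 14.2 and 77.1 ± 1.65 CPM (SD, n = 3), and its log2 fold change of -0.50 ± 0.19 against MHCII+CD11c- cells did not pass (adjusted p = 0.106).

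The calls were not equally stable. Under up to 14 alternatives per gene, 6 of the 12 calls against MHCII+CD11c- cells (Arsb, Cd63, Galc, Gm2a, Gusb and Lamp2) were kept in every alternative, as were 15 of the 22 against MHCII+CD11c+ cells. Between the MHCII+ subsets, 1 of 4 was kept in every alternative, Gm2a, while Acp2, Arsb and Cd63 were each lost when any of 4 to 6 of the 6 libraries compared was left out. Against MHCII+CD11c- cells the calls of Asah1, Grn, Ids, Pla2g15, Slc17a5 and Tpp1 were each lost with at least 1 library left out, Asah1 with any of the 6, and the count fell to 6 without MHCII+CD11c- replicate 1 and 7 without LYVE1+CX3CR1+ replicate 2. The count between the MHCII+ subsets was 1 without MHCII+CD11c- replicate 2 or MHCII+CD11c+ replicate 3, 2 without MHCII+CD11c- replicate 3 or MHCII+CD11c+ replicate 1 or 2, and 3 without MHCII+CD11c- replicate 1. The share of all genes that passed in each alternative is not set beside these counts, so they do not single out these genes.

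The other listed genes of the pathway, 75 in number and 73 of them tested, passed at a share near that of all genes against MHCII+CD11c- cells. There 9 of 73 passed, 7 higher and 2 lower in LYVE1+CX3CR1+ cells (12.3%, against 11.4% of all genes and 14.5% of those at least as abundant as the lowest of the 40). Against MHCII+CD11c+ cells 24 of 73 passed, 20 higher and 4 lower (32.9%, against 21.8% and 27.1%). Naaa, an acid amidase, was lower in LYVE1+CX3CR1+ cells, with log2 fold changes of -2.20 ± 0.17 (adjusted p = 1.17e-09) and -3.30 ± 0.17 (adjusted p = 1.92e-13). Of 16 genes of the proton pump, 2 (12.5%) were higher than in MHCII+CD11c- cells and 6 (37.5%) higher than in MHCII+CD11c+ cells, among them Atp6v1a (0.61 ± 0.18, adjusted p = 0.0231, and 1.10 ± 0.18, adjusted p = 3.32e-05). Of 9 genes of enzyme sorting 3 passed against MHCII+CD11c+ cells (33.3%, 2 higher and 1 lower). Of 16 regulators tested 2 passed there, both higher (12.5%, below the 21.8% of all genes). Against MHCII+CD11c- cells 0 of the 9 and 0 of the 16 passed (0 and 4 at an unadjusted p under 0.05 by edgeR).

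The 9 genes with CACGTG in the promoter window can be set beside the 28 without it. Against untreated MHCII+CD11c- cells 0 of the 9 passed by edgeR (2 at an unadjusted p under 0.05, and 1, Lamp1, by DESeq2) and 11 of the 28 passed, and the median log2 fold changes were 0.50 and 0.43. Of all genes 11.4% passed there, and in a set of 9 genes a count of 0 is not read as different from that share. Against MHCII+CD11c+ cells 5 of 9 (Cln3, Lamp1, Mcoln1, Naglu and Sgsh) and 15 of 28 passed, with medians of 0.88 and 0.51, while 21.8% of all genes passed. The difference between the 2 sets of genes was not tested.

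With IC, LYVE1+CX3CR1+ cells again had the most transcript of most of these genes. The highest mean was in LYVE1+CX3CR1+ cells for 33 of the 40 genes, in MHCII+CD11c- cells for 4 and in MHCII+CD11c+ cells for 3, a split again not counted over all genes. Against MHCII+CD11c- cells 14 genes passed, 13 higher and 1 lower in LYVE1+CX3CR1+ cells, against 9.77% of all genes, and against MHCII+CD11c+ cells 22 passed, 21 higher and 1 lower, against 19.7% of all genes. Between the MHCII+ subsets 4 passed, 2 higher and 2 lower in MHCII+CD11c+ cells, against 2.84% of all genes. The medians over the 40 genes were 0.51, 0.71 and -0.13, and those over all genes -0.01, -0.04 and 0.00. Of the 12 untreated and 14 IC calls against MHCII+CD11c- cells 8 were the same genes in the same direction (66.7% and 57.1%), and of the 22 untreated and 22 IC calls against MHCII+CD11c+ cells 15 were (68.2% of each). Over all genes tested the same shares were 50.9% of the untreated and 59.6% of the IC calls against MHCII+CD11c- cells, and 66.4% and 73.5% against MHCII+CD11c+ cells. These 2 sets of libraries were separate, but they entered 1 fit.

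The smallest library weighed on the comparison with MHCII+CD11c- cells. It placed 0.863% of its counts on the 40 genes, against 1.38% and 1.49% in the other libraries of its group and 1.82%, 1.74% and 1.80% in LYVE1+CX3CR1+ libraries with IC. Without it, 10 genes passed against MHCII+CD11c- cells, 9 higher and 1 lower, and 7 passed between the MHCII+ subsets, 2 higher and 5 lower in MHCII+CD11c+ cells. The latter count was 2 without MHCII+CD11c- replicate 3 or MHCII+CD11c+ replicate 1 or 3. The count against MHCII+CD11c- cells was also 4 in a fit to only the 6 libraries compared, 2 with 1 surrogate variable as a covariate, 8 without replicate 1 and 9 without replicate 2 of the LYVE1+CX3CR1+ libraries. Of the 14 genes, 6 passed whichever of the 6 libraries was left out (Arsb, Fuca1, Gm2a, Grn, Gusb and Hexa), and 1 passed under every alternative, Gm2a. The counts of these other fits are given without the share of all genes that passed in the same fit. In them a change in these genes cannot be told from a change in all genes.

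**Figure D4:**
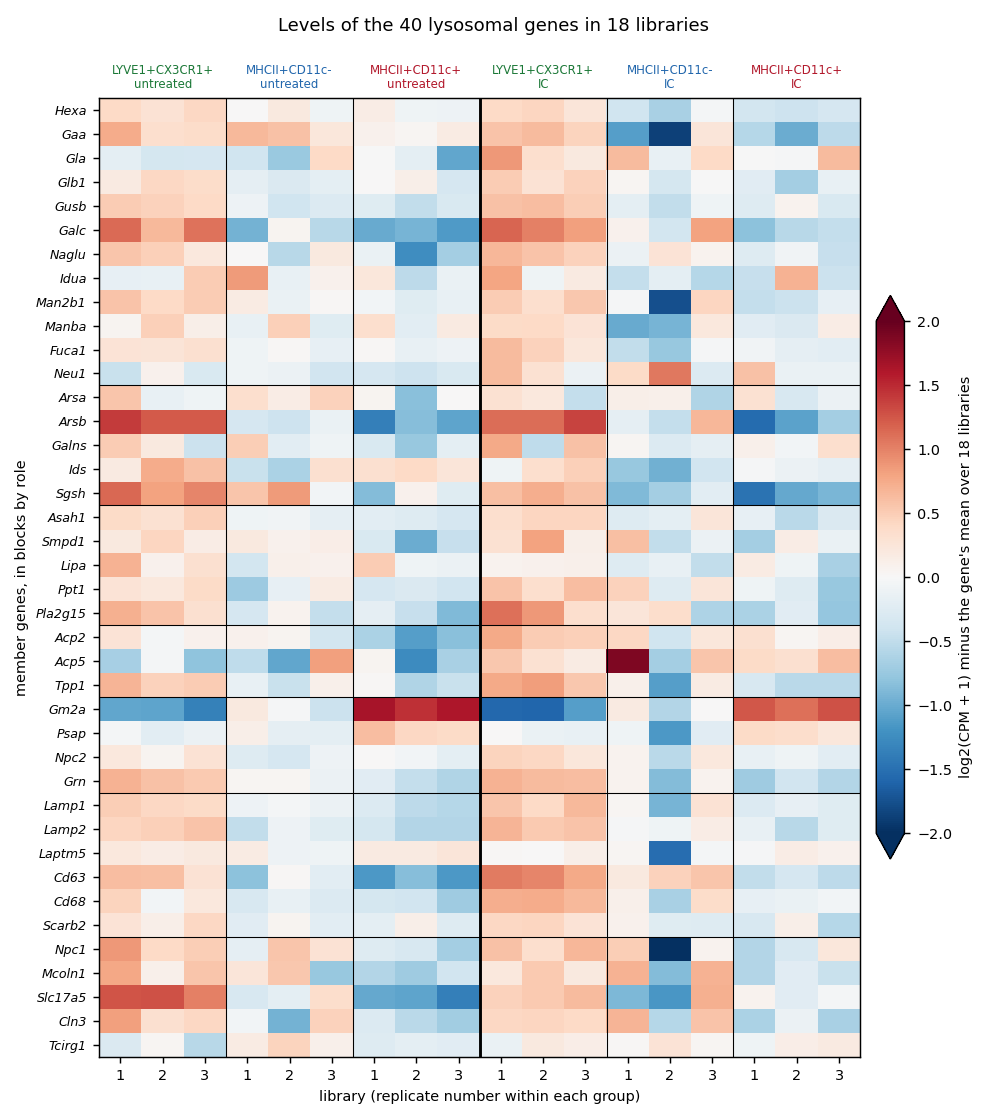
Deviation of log2(CPM + 1) from each gene's mean over the 18 libraries (color, red above and blue below), genes in rows by role, libraries in columns by group. LYVE1+CX3CR1+ columns are mostly red in both treatments, the Gm2a row runs the other way, and replicate 2 of MHCII+CD11c- with IC shows its own low values, as for Npc1 at 22.6 CPM and Gaa at 15.1 CPM.

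Of the 12 glycosidases with IC, 8 (66.7%) passed against MHCII+CD11c+ cells and 4 (33.3%) against MHCII+CD11c- cells, all of them higher in LYVE1+CX3CR1+ cells. The shares of all genes were 19.7% and 9.77%. Hexa measured 654, 668 and 588 CPM in LYVE1+CX3CR1+, 377, 316 and 483 CPM in MHCII+CD11c- and 386, 372 and 394 CPM in MHCII+CD11c+ libraries. All 3 LYVE1+CX3CR1+ libraries were above all others, by 0.68 ± 0.16 (adjusted p = 0.00483) and 0.73 ± 0.15 (adjusted p = 0.000827). Gusb measured 431, 439.6 and 405 CPM in LYVE1+CX3CR1+, 251, 203 and 268 CPM in MHCII+CD11c- and 239, 300.4 and 232 CPM in MHCII+CD11c+ libraries. Its LYVE1+CX3CR1+ libraries too stood above both MHCII+ subsets (0.80 ± 0.16, adjusted p = 0.00126, and 0.72 ± 0.15, adjusted p = 0.00096). Fuca1 measured 190, 168 and 143 CPM in LYVE1+CX3CR1+, 86.3, 71.5 and 120.2 CPM in MHCII+CD11c- and 116, 108 and 105 CPM in MHCII+CD11c+ libraries, with the LYVE1+CX3CR1+ libraries highest (0.78 ± 0.19, adjusted p = 0.00854, and 0.61 ± 0.18, adjusted p = 0.0143). Gaa measured 86.3, 89.6 and 78.8 CPM in LYVE1+CX3CR1+, 26.2, 15.1 and 68.1 CPM in MHCII+CD11c- and 38.6, 28.3 and 39.6 CPM in MHCII+CD11c+ libraries. Its difference from MHCII+CD11c- cells (0.98 ± 0.30, adjusted p = 0.0397) was 0.74 without the smallest library (adjusted p = 0.108), and that from MHCII+CD11c+ cells was 1.26 ± 0.28 (adjusted p = 0.0018).

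Another 4 glycosidases passed against MHCII+CD11c+ cells alone. Galc measured 144, 129 and 113 CPM in LYVE1+CX3CR1+, 68, 49 and 112 CPM in MHCII+CD11c- and 35.5, 43.3 and 45.7 CPM in MHCII+CD11c+ libraries. The 3 ranges were separate, but 1 MHCII+CD11c- library lay just under the LYVE1+CX3CR1+ range, and only the difference from MHCII+CD11c+ cells passed (1.61 ± 0.26, adjusted p = 3.77e-05). Naglu measured 109, 102 and 94.6 CPM in LYVE1+CX3CR1+, 62.8, 82.8 and 72.1 CPM in MHCII+CD11c- and 57.1, 65.3 and 49.3 CPM in MHCII+CD11c+ libraries (0.84 ± 0.24, adjusted p = 0.015). Glb1 measured 62, 53.2 and 60 CPM in LYVE1+CX3CR1+, 44.5, 33.9 and 43.1 CPM in MHCII+CD11c- and 37, 26.7 and 39 CPM in MHCII+CD11c+ libraries (0.77 ± 0.24, adjusted p = 0.0205). Both were highest in LYVE1+CX3CR1+ libraries, without overlap. Man2b1 measured 1053, 936 and 1081 CPM in LYVE1+CX3CR1+, 729.5, 218 and 995 CPM in MHCII+CD11c- and 535, 548 and 659.8 CPM in MHCII+CD11c+ libraries (0.81 ± 0.26, adjusted p = 0.0283), and its MHCII+CD11c- libraries ran from below the MHCII+CD11c+ range into the LYVE1+CX3CR1+ range.

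Of the sulfatases, Arsb, Sgsh and Ids passed with IC. Arsb measured 757, 754 and 893 CPM in LYVE1+CX3CR1+, 309, 249 and 551 CPM in MHCII+CD11c- and 119, 165 and 216 CPM in MHCII+CD11c+ libraries. The LYVE1+CX3CR1+ libraries were above all others and the MHCII+CD11c+ libraries below all others, with log2 fold changes of 1.07 ± 0.22 (adjusted p = 0.00189), 2.24 ± 0.23 (adjusted p = 4.74e-08) and, for MHCII+CD11c+ against MHCII+CD11c- cells, -1.17 ± 0.23 (adjusted p = 0.00377). Sgsh measured 74.4, 81.2 and 74 CPM in LYVE1+CX3CR1+, 26.2, 30.1 and 42.1 CPM in MHCII+CD11c- and 17, 23.6 and 25.6 CPM in MHCII+CD11c+ libraries. It was 1.14 ± 0.30 higher than in MHCII+CD11c- (adjusted p = 0.0147) and 1.75 ± 0.28 higher than in MHCII+CD11c+ cells (adjusted p = 4.84e-05) on the log2 scale, with no overlap. Ids measured 84, 113 and 125 CPM in LYVE1+CX3CR1+, 52.3, 45.2 and 68.1 CPM in MHCII+CD11c- and 87.9, 82.6 and 78.6 CPM in MHCII+CD11c+ libraries. It was lowest in MHCII+CD11c- libraries, without overlap, and the difference from LYVE1+CX3CR1+ cells passed (0.89 ± 0.26, adjusted p = 0.0262) and was lost without the smallest library (0.82, adjusted p = 0.0598).

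Among the lipid hydrolases, Pla2g15 measured 267, 226 and 156 CPM in LYVE1+CX3CR1+, 146, 158 and 80.1 CPM in MHCII+CD11c- and 78.7, 105 and 71.9 CPM in MHCII+CD11c+ libraries. It was 0.82 ± 0.26 higher than in MHCII+CD11c- cells (adjusted p = 0.0441), although 1 MHCII+CD11c- library exceeded the lowest LYVE1+CX3CR1+ library, and 1.33 ± 0.25 higher than in MHCII+CD11c+ cells (adjusted p = 0.000255). Asah1 measured 404, 432 and 431 CPM in LYVE1+CX3CR1+, 269, 279 and 379.5 CPM in MHCII+CD11c- and 287, 221 and 262 CPM in MHCII+CD11c+ libraries, and Ppt1 measured 194, 166 and 201 CPM in LYVE1+CX3CR1+, 180.4, 109 and 155 CPM in MHCII+CD11c- and 123, 109 and 76.8 CPM in MHCII+CD11c+ libraries. Both passed against MHCII+CD11c+ cells (0.72 ± 0.15, adjusted p = 0.000985, and 0.88 ± 0.21, adjusted p = 0.00315). Smpd1 passed in no comparison with IC and measured 53, 75.4 and 46.1 CPM in LYVE1+CX3CR1+, 65.4, 30.1 and 39.1 CPM in MHCII+CD11c- and 26.2, 47.2 and 39 CPM in MHCII+CD11c+ libraries. Tpp1 measured 289, 304 and 248 CPM in LYVE1+CX3CR1+, 183, 79.1 and 190.3 CPM in MHCII+CD11c- and 136, 116 and 118 CPM in MHCII+CD11c+ libraries. It was above both other subsets (0.83 ± 0.23, adjusted p = 0.0182, and 1.19 ± 0.22, adjusted p = 0.000218), and without the smallest library the former was 0.61 (adjusted p = 0.0508).

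Gm2a kept its opposite order with IC, at 102, 101 and 141 CPM in LYVE1+CX3CR1+, 348, 203 and 306 CPM in MHCII+CD11c- and 722, 659.9 and 743 CPM in MHCII+CD11c+ libraries. The 3 ranges were separate, and the log2 fold changes were -1.33 ± 0.20 (adjusted p = 3.84e-05) and -2.62 ± 0.19 (adjusted p = 1.78e-10) for LYVE1+CX3CR1+ against MHCII+CD11c- and MHCII+CD11c+ cells and 1.29 ± 0.19 (adjusted p = 0.000184) between the MHCII+ subsets. Psap measured 3104, 2804 and 2771 CPM in LYVE1+CX3CR1+, 2897, 1389 and 2624 CPM in MHCII+CD11c- and 4022, 3910 and 3583 CPM in MHCII+CD11c+ libraries. MHCII+CD11c+ libraries were again the highest, and the difference between the MHCII+ subsets passed (0.73 ± 0.18, adjusted p = 0.0267), also without the smallest library (0.49, adjusted p = 0.0229) but not without any 1 MHCII+CD11c+ library. Grn measured 3204, 3049 and 3035 CPM in LYVE1+CX3CR1+, 2066, 1077 and 2076 CPM in MHCII+CD11c- and 1206, 1509 and 1310 CPM in MHCII+CD11c+ libraries. LYVE1+CX3CR1+ libraries exceeded the others by 0.82 ± 0.18 (adjusted p = 0.00321) and 1.21 ± 0.18 (adjusted p = 1.73e-05). Npc2 measured 638, 621 and 543 CPM in LYVE1+CX3CR1+, 489, 320 and 538 CPM in MHCII+CD11c- and 419.6, 441 and 402 CPM in MHCII+CD11c+ libraries and passed against MHCII+CD11c+ cells (0.51 ± 0.16, adjusted p = 0.0224).

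The membrane proteins were 5 of 6 higher in LYVE1+CX3CR1+ than in MHCII+CD11c+ cells with IC, all but Laptm5 (83.3%, against 19.7% of all genes). Cd63 measured 385, 370.1 and 319 CPM in LYVE1+CX3CR1+, 214, 259.8 and 276 CPM in MHCII+CD11c- and 133, 149 and 131 CPM in MHCII+CD11c+ libraries. Its 3 ranges were separate, with 1.38 ± 0.19 against MHCII+CD11c+ cells (adjusted p = 4.5e-06), 0.51 ± 0.19 against MHCII+CD11c- cells, which did not pass (adjusted p = 0.0919), and -0.87 ± 0.20 between the MHCII+ subsets (adjusted p = 0.0126), the last lost without any of 3 libraries. Lamp2 measured 806, 725 and 752 CPM in LYVE1+CX3CR1+, 497, 474 and 556 CPM in MHCII+CD11c- and 455, 342 and 424 CPM in MHCII+CD11c+ libraries and passed in both (0.57 ± 0.15, adjusted p = 0.015, and 0.91 ± 0.15, adjusted p = 6.05e-05). Lamp1 measured 1475, 1330 and 1581 CPM in LYVE1+CX3CR1+, 1035, 527 and 1220 CPM in MHCII+CD11c- and 835, 896 and 849.8 CPM in MHCII+CD11c+ libraries. Both its differences passed (0.64 ± 0.19, adjusted p = 0.0314, and 0.76 ± 0.19, adjusted p = 0.00398), the former not without the smallest library (0.39, adjusted p = 0.0508). Cd68 measured 962, 970 and 906 CPM in LYVE1+CX3CR1+, 625, 369 and 751 CPM in MHCII+CD11c- and 519.9, 526 and 558 CPM in MHCII+CD11c+ libraries. It was above both MHCII+ subsets (0.68 ± 0.19, adjusted p = 0.0199, and 0.82 ± 0.18, adjusted p = 0.00169). Scarb2 measured 279, 284 and 253 CPM in LYVE1+CX3CR1+, 222, 177 and 176 CPM in MHCII+CD11c- and 168, 227 and 141 CPM in MHCII+CD11c+ libraries and passed against MHCII+CD11c+ cells (0.60 ± 0.18, adjusted p = 0.0162).

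Of the 5 transporter, channel and pump genes, 4 had passed against MHCII+CD11c+ cells without treatment (80%, against 21.8% of all genes), and 0 passed between subsets with IC. With IC 19.7% of all genes passed against MHCII+CD11c+ and 9.77% against MHCII+CD11c- cells, and 2.84% between the MHCII+ subsets. At an unadjusted p under 0.05 edgeR gave 3 of the 5 against MHCII+CD11c+, 0 against MHCII+CD11c- and 2 between the MHCII+ subsets, and DESeq2 called 1, Cln3, against MHCII+CD11c+ cells. The difference between treatments is tested further on. Slc17a5 measured 48.5, 50.6 and 54.7 CPM in LYVE1+CX3CR1+, 18.3, 15.1 and 58.1 CPM in MHCII+CD11c- and 37, 29.9 and 34.1 CPM in MHCII+CD11c+ libraries. LYVE1+CX3CR1+ libraries remained above MHCII+CD11c+ libraries, but with a log2 fold change of 0.62 ± 0.31 (adjusted p = 0.18). Npc1 measured 218, 182 and 231 CPM in LYVE1+CX3CR1+, 204, 22.6 and 151 CPM in MHCII+CD11c- and 95.6, 116 and 169 CPM in MHCII+CD11c+ libraries. Mcoln1 measured 40.6, 50.6 and 40.3 CPM in LYVE1+CX3CR1+, 57.5, 18.8 and 57.1 CPM in MHCII+CD11c- and 23.1, 29.9 and 25.6 CPM in MHCII+CD11c+ libraries, and Cln3 measured 45.7, 46.4 and 45.1 CPM in LYVE1+CX3CR1+, 54.9, 22.6 and 51.1 CPM in MHCII+CD11c- and 21.6, 31.5 and 21.3 CPM in MHCII+CD11c+ libraries. For these 3 genes too the LYVE1+CX3CR1+ libraries were above the MHCII+CD11c+ libraries, and the MHCII+CD11c- libraries overlapped with both. The log2 fold changes against MHCII+CD11c+ cells were 0.70, 0.73 and 0.87, with adjusted p-values of 0.123, 0.128 and 0.0548.

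Within each subset, most of the 40 genes did not pass between IC and no treatment. In LYVE1+CX3CR1+ cells 0 of 40 passed, against 0.464% of all genes, in MHCII+CD11c- cells 0 of 40, against 1.06%, and in MHCII+CD11c+ cells 1 of 40, against 0.673%. The median log2 fold changes of the 40 genes were 0.10, 0.01 and 0.05. At an unadjusted p under 0.05 the same test gave 5, 5 and 7 of the 40 genes, and the Wald test of DESeq2 gave 0, 1 and 1 at an adjusted p under 0.05. Of the 73 other genes of the pathway, 0 passed in any of the 3 subsets by edgeR (4, 11 and 9 at an unadjusted p under 0.05), and 0, 1 and 1 passed by DESeq2.

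**Figure D5:**
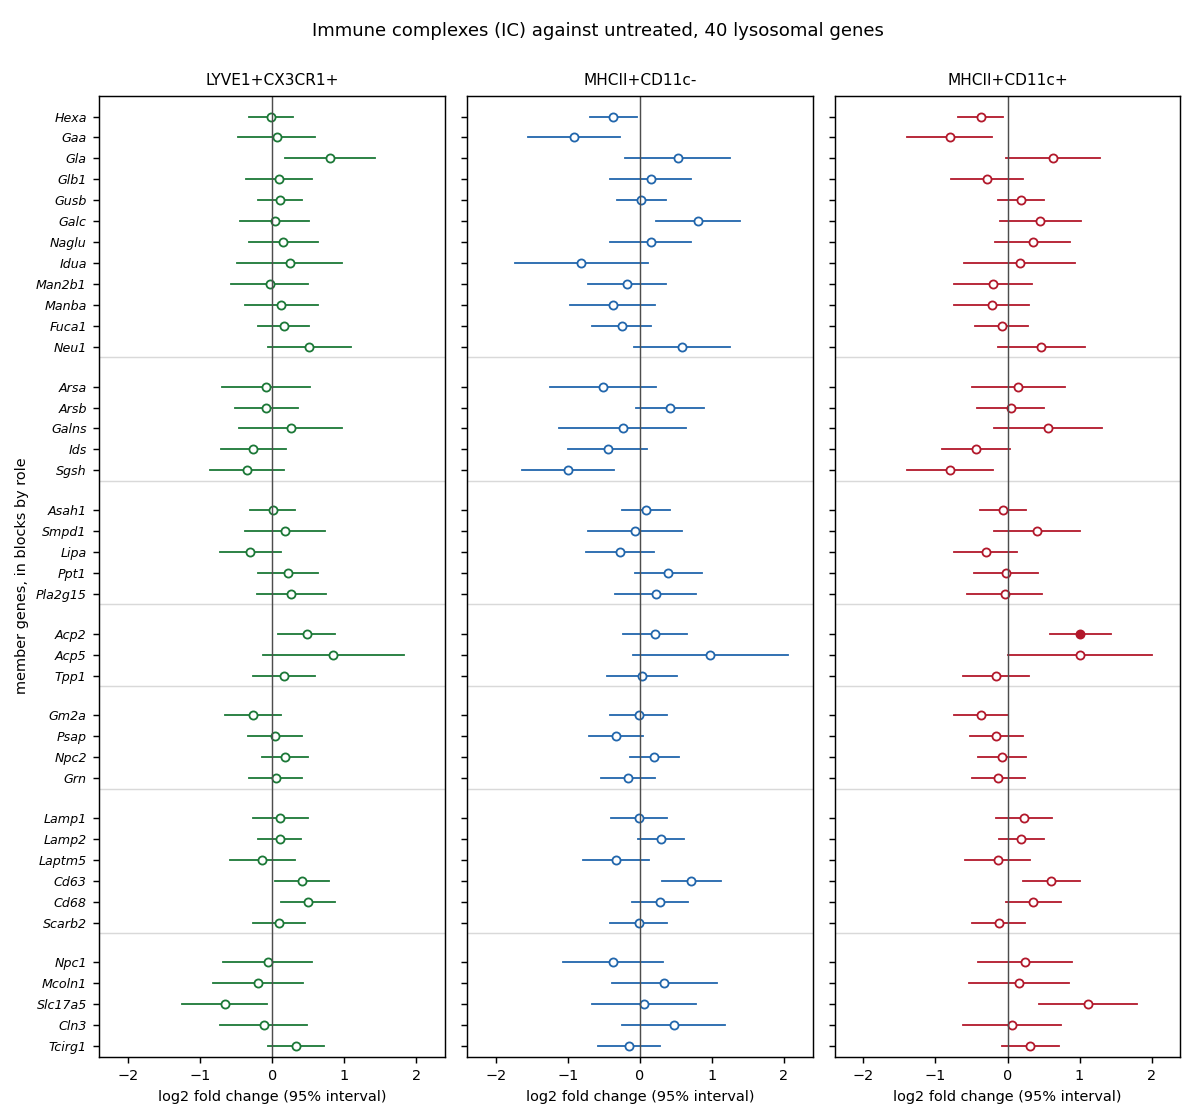
Log2 fold change of the 40 genes with IC against no treatment in each subset (x axes), with 95% intervals and genes in blocks by role (y axis). Only Acp2 in MHCII+CD11c+ cells is filled, having passed an adjusted p of 0.05, at a log2 fold change of 1.01, and the widest intervals are those of Acp5.

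The gene that passed was Acp2, lysosomal acid phosphatase, in MHCII+CD11c+ cells. It measured 70.9, 50.6 and 61.2 CPM without treatment and 137, 113 and 121 CPM with IC. The libraries did not overlap, and Acp2 rose 2.02-fold (log2 1.01 ± 0.20, adjusted p = 0.014), a call lost without any of 4 of the 6 libraries compared: replicates 2 and 3 without treatment and replicates 1 and 3 with IC. In the other subsets Acp2 measured 187, 157 and 153 CPM with IC in LYVE1+CX3CR1+ cells, all above the untreated libraries (log2 0.48 ± 0.19, adjusted p = 0.414), and 146, 82.8 and 129 CPM in MHCII+CD11c- cells, which overlapped with the untreated libraries. The IC response of Acp2 in MHCII+CD11c+ cells was 0.80 ± 0.30 above that in MHCII+CD11c- cells on the log2 scale, which did not pass (adjusted p = 0.773). The exons of Acp2 overlap with those of Ddb2 on the opposite strand, and the strand setting of the counting is not stated.

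The next genes in order of unadjusted p did not pass. In LYVE1+CX3CR1+ cells they were Cd68 (0.49 ± 0.18, adjusted p = 0.35) and Gla, at 36.4, 32.6 and 32.8 CPM without and 76.7, 53.2 and 48 CPM with IC (0.80 ± 0.31, adjusted p = 0.378). For both, all 3 libraries with IC lay above the untreated libraries. In MHCII+CD11c- cells they were Cd63 (0.72 ± 0.20, adjusted p = 0.0715), higher with IC in all libraries, and Sgsh (-0.99 ± 0.31, adjusted p = 0.118), lower in all. Without the smallest library the value for Cd63 was 0.70 (adjusted p = 0.083). In MHCII+CD11c+ cells Slc17a5 came after Acp2, at 16.8, 16.4 and 13 CPM without and 37, 29.9 and 34.1 CPM with IC (1.12 ± 0.33, adjusted p = 0.149). All libraries with IC were above all untreated ones. In LYVE1+CX3CR1+ cells Slc17a5 lay lower with IC in all libraries, at 48.5, 50.6 and 54.7 CPM (-0.66 ± 0.29, adjusted p = 0.476).

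Cd63 and Sgsh, singled out after their values were seen, kept 1 direction with IC in all 3 subsets without overlap of libraries, and no such difference passed. The share of all genes with the same pattern was not counted, so the pattern cannot be called particular to these genes. Cd63 was higher, with log2 fold changes of 0.41 ± 0.18 in LYVE1+CX3CR1+ cells (adjusted p = 0.476), 0.72 in MHCII+CD11c- cells and 0.61 ± 0.19 in MHCII+CD11c+ cells (adjusted p = 0.189). Sgsh was lower, with log2 fold changes of -0.35 ± 0.25 (adjusted p = 0.785), -0.99 and -0.80 ± 0.29 (adjusted p = 0.288).

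A difference in IC response between subsets passed the threshold for 0 of the 40 genes. Of all genes, the share that passed was 0% between LYVE1+CX3CR1+ and MHCII+CD11c- cells and 0.00948% in each of the other 2 comparisons of responses. At an unadjusted p under 0.05 edgeR gave 688, 474 and 642 of the 10550 genes and 2 of the 40 genes in each comparison, and DESeq2 called 0 of the 40 in each. The smallest p of the 40 genes was that of Slc17a5, whose response in LYVE1+CX3CR1+ cells minus that in MHCII+CD11c+ cells was -1.78 ± 0.44 on the log2 scale (unadjusted p = 0.000422, adjusted p = 0.645). Its level was 81.2 ± 8.35 CPM without and 51.3 ± 3.18 CPM with IC in LYVE1+CX3CR1+ cells and 15.4 ± 2.09 and 33.7 ± 3.59 CPM in MHCII+CD11c+ cells (SD, n = 3). Against MHCII+CD11c- cells the smallest p was that of Gaa, whose response differed by 0.98 ± 0.41 (adjusted p = 0.751), followed by Galc (-0.77 ± 0.37, adjusted p = 0.751). In MHCII+CD11c+ against MHCII+CD11c- cells the smallest unadjusted p was that of Acp2 (95% interval without adjustment 0.19 to 1.41), followed by Slc17a5 (1.06 ± 0.48, adjusted p = 0.8).

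Some of the counts may hold reads of a neighbouring gene. Exons of Hexa, Idua, Arsa, Sgsh, Ppt1, Acp2, Grn, Lamp1 and Cln3 overlap with exons of a counted gene on the opposite strand, and those of Glb1 with Tmppe on the same strand. Of the 6 genes whose calls against MHCII+CD11c- cells held in every alternative, 0 have such an overlap. The 15 genes whose calls against MHCII+CD11c+ cells held in every alternative include Acp2, Grn, Lamp1 and Sgsh, which have one.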

How the data were processed

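RNA of 18 libraries (6 groups of 3) of sorted synovial macrophages was made into stranded total RNA libraries from low input and sequenced in pairs. The authors used Trim Galore for trimming, HISAT2 for alignment (mm10) and featureCounts for counting, and deposited 1 table of raw counts per gene symbol for each library, and a table that combines them was not used here. Tool versions, annotation, strand setting and the handling of duplicates are not given in the sources used here. The deposited counts were tested with edgeR 4.0.16 (TMM scaling, filterByExpr with a minimum count of 10, quasi-likelihood test over 6 groups and 18 libraries, Benjamini-Hochberg adjustment over 10550 genes) under R 4.3.3, after a check on simulated counts. The SE is the log2 fold change divided by the root of F. CPM per kb used the exon length of the GRCm38 annotation. Nothing in the labels ties a library to single mice, so p-values measure the spread between pools. Totals of 245903 to 2172358 counts make 1 count worth about 0.478 to 3.75 CPM, reckoned on all counts and not on those of the filtered genes. A gene was named with its value in every library where it passed in any comparison. The 40 genes, the other gene lists and the tests were chosen with earlier results of these data known. Alternatives were 2 replicate blocks, DESeq2 1.42.0 and its size factors, 2 other filters, fits to only the libraries compared, 1 surrogate variable from sva 3.50.0, and each library left out.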

Additional observations from a re-analysis of the deposited data

How the results depend on the processing

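Of the 12 counts of genes that passed, 156 of 186 values under the alternatives stayed within 1.5 times the main count, and no gene's called direction reversed. For IC in LYVE1+CX3CR1+ and in MHCII+CD11c- cells, and for the 3 differences of responses, the main count was 0. A value could stay within that count only by being 0, so 156 of 186 does not measure how stable the other counts were. With 1 surrogate variable, 7 genes passed for LYVE1+CX3CR1+ against MHCII+CD11c- without treatment, 2 with IC, and 2 for IC in MHCII+CD11c+ cells. In fits to only the libraries compared, 4 passed for LYVE1+CX3CR1+ against MHCII+CD11c- with IC, 1 between the MHCII+ subsets with IC, 3 for IC in LYVE1+CX3CR1+ cells (Cd68, Gla and Slc17a5) and 1 for the IC response of LYVE1+CX3CR1+ against MHCII+CD11c+ cells (Slc17a5). For IC in MHCII+CD11c- cells the count was 1 with the replicate block within treatment, with 1 surrogate variable, by DESeq2, and under both other filters (none, or 10 counts required in each library), the gene being Cd63 in all but the surrogate variable fit, where it was Arsb. Leaving out 1 library gave 6 to 10 genes for LYVE1+CX3CR1+ against MHCII+CD11c-, 16 to 20 against MHCII+CD11c+ and 1 to 3 between the MHCII+ subsets without treatment, 8 to 19, 18 to 21 and 2 to 7 with IC, 0, 0 to 1 and 0 to 1 for IC in the 3 subsets, and 0 for the 3 differences of responses. The 19 came without MHCII+CD11c- replicate 3 with IC, the 7 without replicate 2. The count of calls between the untreated MHCII+ subsets was 6 with no filter and 6 by DESeq2, against 4. The share of all genes that passed is not given for each alternative, so shifts of these counts cannot be told from shifts over all genes. The cause of these shifts was not tested.

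Whether same-numbered libraries share a pool of mice is not given in the sources used here. Same-numbered libraries of 2 subsets correlated at -0.0455 to 0.132 in their deviations from group means (over 0.1 in 1 of 18 pairs), and those of IC and no treatment at -0.0268 to 0.0393, so the numbers were not taken to pair the libraries. A library correlated best with its own number in 13 of 18 pairs of subsets and in 4 of 9 pairs of IC and no treatment, a hint from the data and not from the design. With the replicate number as a block 12, 22 and 4 genes passed between subsets without treatment, 14, 22 and 4 with IC, and 0, 0 and 1 for IC. The largest shift of the median of all genes under any setting was 0.0619 on the log2 scale. Depth limits the MHCII+CD11c- libraries with IC most, where 1 count is worth up to about 3.75 CPM.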
